A study of Mus musculus with 12 samples.

Results

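B16F10 melanoma cells kept in medium from tumour-conditioned macrophages were compared with B16F10 cells kept in medium from interleukin-4-treated macrophages, over every gene with enough counts to test. The comparison used 6 of the 12 RNA sequencing libraries of the series, 3 in each group, chosen by their treatment labels. B16F10 is an established mouse melanoma cell line, and its genotype is labelled WT in all libraries. Bone-marrow-derived macrophages (BMDM) were first given 20 ng/ml of interleukin-4 (IL-4) in 1 group and 75% medium conditioned by B16F10 cells in the other, in each case for 24 h. Medium from these macrophages was then put on B16F10 cells for a further 24 h, and RNA of the B16F10 cells was sequenced. The groups of B16F10 libraries are called M2 and TAM here, after the macrophages that made the medium (M2 for IL-4-activated macrophages, TAM for tumour-associated macrophages). No label states that the macrophages were washed free of IL-4 or of tumour medium, so carried-over IL-4, carried-over tumour medium and macrophage products cannot be told apart in this design. Whether the 3 libraries of each group are separate cultures is also not stated, and the p-values therefore cover the spread among libraries alone, which could be technical. The design holds 1 cell line.

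Several gene programs of known biology divided the groups, and they are introduced here as background. Amino acid shortage, unfolded protein in the endoplasmic reticulum and oxidative damage all lead to phosphorylation of the initiation factor eIF2, which slows translation in general and favours translation of the transcription factor ATF4. ATF4, with its partner CHOP, raises genes for amino acid uptake, amino acid synthesis and tRNA charging, and genes that later end the response. SREBP transcription factors raise the genes of cholesterol and fatty acid synthesis when sterols are scarce. In melanocytes and melanoma, MITF is the transcription factor that raises pigment genes and also supports proliferation.

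Libraries held 18012924 to 20075551 counts each. Levels are given as CPM, the usual read count relative to the library total, after scaling by the trimmed mean of M values (TMM), and changes as log2 fold changes of TAM over M2, with an approximate standard error (SE) after the ± sign. A gene was called when edgeR's quasi-likelihood test gave an adjusted p under 0.05 (Benjamini-Hochberg over all genes tested), and every adjusted p below comes from that test. Of 13931 genes tested, 5053 were higher in TAM (36.3% of genes) and 5129 were lower (36.8%), 73.1% in either direction. Changes of at least 2-fold were found in 1432 genes that were higher (10.3%) and 1424 that were lower (10.2%). The called changes reached at least 4-fold in 405 genes that were higher and 308 that were lower, and at least 8-fold in 164 and 81. The median log2 fold change over all tested genes was 0.0018, the 5th percentile -1.46 and the 95th percentile 1.52. With libraries this alike within groups, small changes passed the test: the smallest called change was 0.077 on the log2 scale. A call alone therefore says little about a list of genes, and each list below is read by its median as well as by its counts. Libraries of 1 group correlated at 0.9968 or more in log2 CPM and libraries of different groups at 0.95 or less, and no library stood apart. The groups did not overlap in 10411 of the tested genes (74.7%), so a lack of overlap in a single gene says little by itself.

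**Figure D1:**
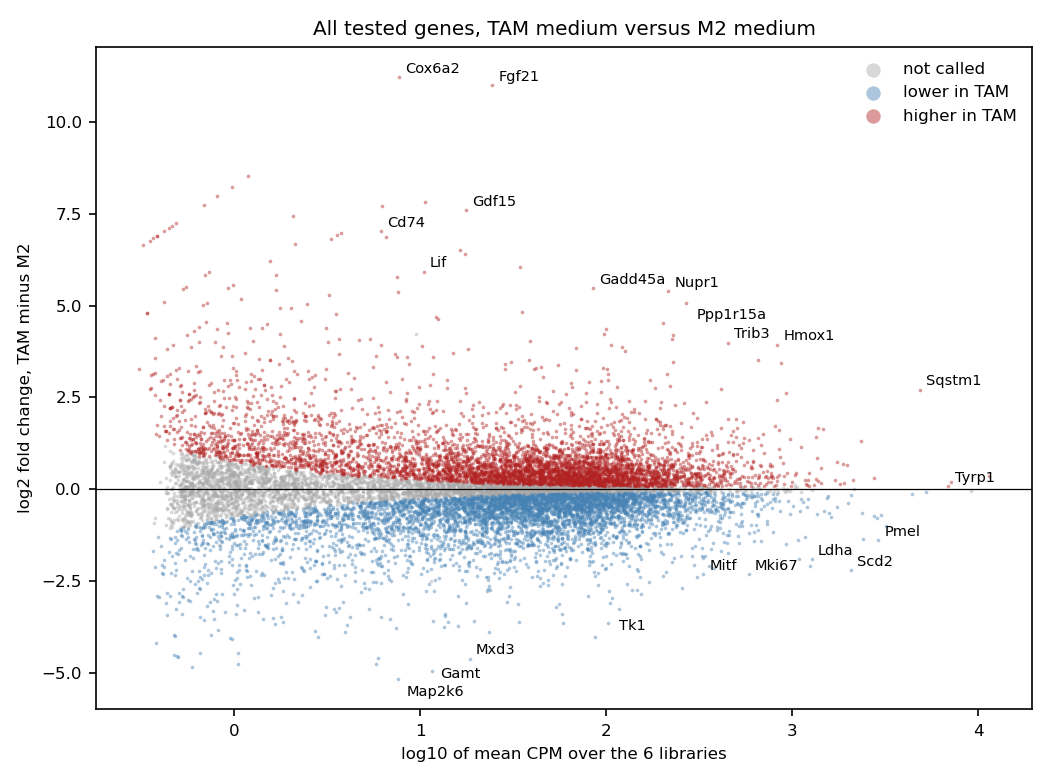
Each point is 1 of 13931 tested genes, with the log10 of its mean CPM over the 6 libraries on the x axis and the log2 fold change of TAM over M2 on the y axis. Red points were higher in TAM (5053 genes), blue points lower (5129 genes) and grey points not called, and the labelled genes are described in the text.

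Markers of the cell type matched the label of a melanoma line. All 8 melanocyte markers looked up (Mitf, Sox10, Tyr, Tyrp1, Dct, Pmel, Mlana and Gpr143) were tested, and together they made up 18800 to 19100 CPM of total counts in M2 and 14400 to 15300 CPM in TAM. Of these 8 genes 1 was higher and 7 were lower in TAM. Macrophage markers were close to absent: of 23 markers, 10 had no count in any of the 6 libraries, among them Ptprc, Adgre1 (F4/80), Itgam (CD11b), Tyrobp and the complement genes C1qa, C1qb and C1qc. The 23 macrophage markers summed to 5.92 to 6.72 CPM in M2 and 4.03 to 4.88 CPM in TAM, 4 were tested, and 2 (Cd68 and Coro1a) were lower in TAM. Of 12 markers of macrophage polarisation, 10 of neutrophils and 12 of lymphocytes, none had enough counts to be tested. Of 12 fibroblast and endothelial markers 4 were tested: Pdgfrb, Col1a1 and Vwf were higher in TAM and Pdgfra was lower, and the 12 summed to 26.8 to 29.5 CPM in M2 and 40.4 to 42.9 CPM in TAM. In bulk RNA, fewer cells of a type and less RNA per cell cannot be told apart.

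To describe the response, 41 lists of genes were used, with 817 entries and 801 different genes. Of these, 724 entries and 710 genes had enough counts to be tested. The lists were read as counts and medians beside the values over all tested genes, and none was tested as a set. The background for every count of members below is 36.3% of all tested genes called higher and 36.8% called lower.

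**Figure D2:**
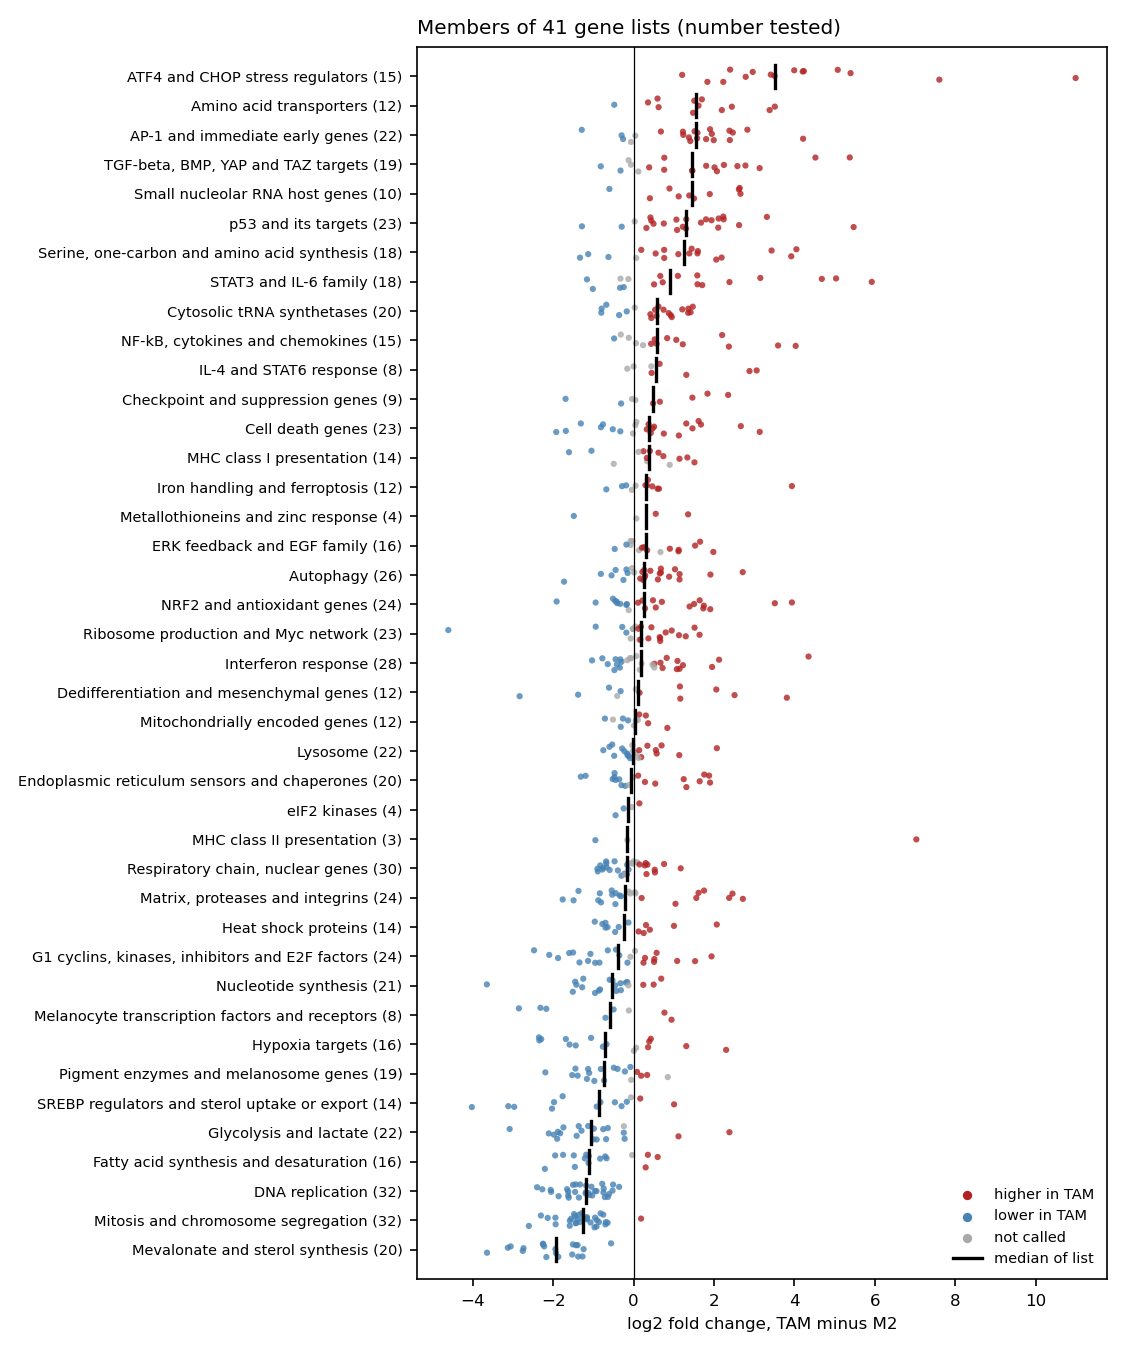
Each row is 1 of 41 gene lists, ordered by its median, with the number of tested members in brackets, and each point is the log2 fold change of TAM over M2 of 1 member. Black bars are list medians, which run from -1.94 for mevalonate and sterol synthesis to 3.51 for the ATF4 and CHOP stress regulators.

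The regulators that act with ATF4 and CHOP were higher in TAM without exception among those tested. All 15 tested members of that list rose by at least 2-fold, against 10.3% of all genes, with a median log2 fold change of 3.51; the other member, Stc2, had too few counts to be tested. Atf4 itself stood at 450.1, 378 and 403 CPM in M2 and 956, 934 and 955 CPM in TAM, a log2 fold change of 1.21 ± 0.045 (adjusted p = 2.4e-18). Ddit3, which encodes CHOP, stood at 31.3, 26.0 and 29.1 CPM in M2 and 196, 210.3 and 190.3 CPM in TAM, a log2 fold change of 2.79 ± 0.054 (adjusted p = 4.89e-32). For both genes the lowest TAM library lay above the highest M2 library. Ppp1r15a encodes GADD34, the phosphatase subunit that reverses eIF2 phosphorylation, and stood at 13.9, 14.9 and 17.8 CPM in M2 and 530.1, 531 and 510.5 CPM in TAM, a log2 fold change of 5.08 ± 0.055 (adjusted p = 2.73e-40). Trib3, a pseudokinase that restrains ATF4 activity, stood at 66.3, 42.5 and 51.2 CPM in M2 and 843, 869 and 837 CPM in TAM, a log2 fold change of 3.99 ± 0.17 (adjusted p = 2.35e-05). Nupr1, a small chromatin protein induced by stress, stood at 12.7, 7.48 and 9.86 CPM in M2 and 422, 439.6 and 402 CPM in TAM, a log2 fold change of 5.40 ± 0.13 (adjusted p = 1.46e-07). Ppp1r15a, Trib3 and Nupr1 were far lower in every M2 library than in every TAM library. Ppp1r15a and Trib3 are among the genes in the plot of levels by library. The hormones of the response went from near absence to clear detection. Fgf21, a secreted hormone of starvation and mitochondrial stress, had 1 count over the 3 M2 libraries and 2861 over the 3 TAM libraries, a ratio of 2760 (95% exact conditional interval 495 to 109000, which covers counting error only). Gdf15, a stress hormone that reduces food intake, stood at 0, 0.251 and 0.277 CPM in M2 and 33.2, 36.9 and 35.6 CPM in TAM, a log2 fold change of 7.60 ± 0.20 (adjusted p = 3.86e-29). The partner transcription factors Atf3 (4.23), Atf5 (4.21), Cebpb (3.51) and Cebpg (2.40) rose as well, as did Chac1, which degrades glutathione (2.96), and the inhibitors of mTORC1 signalling Ddit4 (1.84) and Sesn2 (2.23).

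The 4 kinases that phosphorylate eIF2 changed by less than 2-fold: 1 rose, 2 fell and 1 was not called (median -0.14). Eif2ak3 (PERK, the kinase of the endoplasmic reticulum) was higher by 0.14 on the log2 scale. The Eif2ak3 call was lost when M2 replicate 3, TAM replicate 2 or TAM replicate 3 was left out (adjusted p = 0.0588, 0.114 and 0.076). That call was also lost in the fit of 12 libraries and in the test against a 1.5-fold change. Eif2ak2 (PKR, the kinase that senses double-stranded RNA) fell by 0.45 and Eif2ak1 (HRI, which senses haem and mitochondrial stress) fell by 0.25. Both calls were lost in the test against a 1.5-fold change, and that of Eif2ak2 also in the fit of 12 libraries. Eif2ak4 (GCN2, which senses uncharged tRNA) was not called at -0.043.

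Promoters of the stress regulators were searched for the C/EBP-ATF response element, the composite site that ATF4 and its C/EBP partners bind, written as TGATGNAAN on either strand. Promoters came from RefSeq on build GRCm38.p6, from 250 bases before to 50 bases after each start site. A match was present in 6 of 18 promoters of the 15 tested stress regulators (33.3%), in 3 of 18 promoters of amino acid synthesis genes (16.7%), in 2 of 12 of amino acid transporters (16.7%) and in 5 of 12 of the tRNA synthetases (41.7%), against 3.95% of all 32851 promoters. These shares count promoters of 15 of 15, 16 of 18, 8 of 12 and 12 of 20 tested genes that had an entry. A match describes the letters in the window and shows no binding. Windows of 60 bases from 8 genes that rose are printed because their promoters carry the element, in the 5′ to 3′ direction of the gene, with 1 match in capitals.
Fgf21, chr7:45615596-45615655, minus strand: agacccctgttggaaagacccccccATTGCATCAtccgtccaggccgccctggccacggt
Nupr1, chr7:126625547-126625606, minus strand: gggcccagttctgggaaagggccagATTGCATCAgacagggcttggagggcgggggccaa
Atf3, chr1:191183410-191183469, minus strand: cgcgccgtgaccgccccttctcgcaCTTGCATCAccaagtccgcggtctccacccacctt
Vldlr, chr19:27216794-27216853, plus strand: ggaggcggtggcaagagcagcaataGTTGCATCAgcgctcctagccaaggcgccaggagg
Chac1, chr2:119351023-119351082, plus strand: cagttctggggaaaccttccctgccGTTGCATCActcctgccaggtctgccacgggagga
Pycr1, chr11:120643817-120643876, minus strand: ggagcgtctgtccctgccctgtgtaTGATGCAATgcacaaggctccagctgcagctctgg
Asns, chr6:7693210-7693269, minus strand: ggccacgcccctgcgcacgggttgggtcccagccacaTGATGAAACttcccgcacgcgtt
Slc7a11, chr3:50443645-50443704, minus strand: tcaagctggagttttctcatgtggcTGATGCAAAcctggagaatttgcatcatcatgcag

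**Figure D3:**
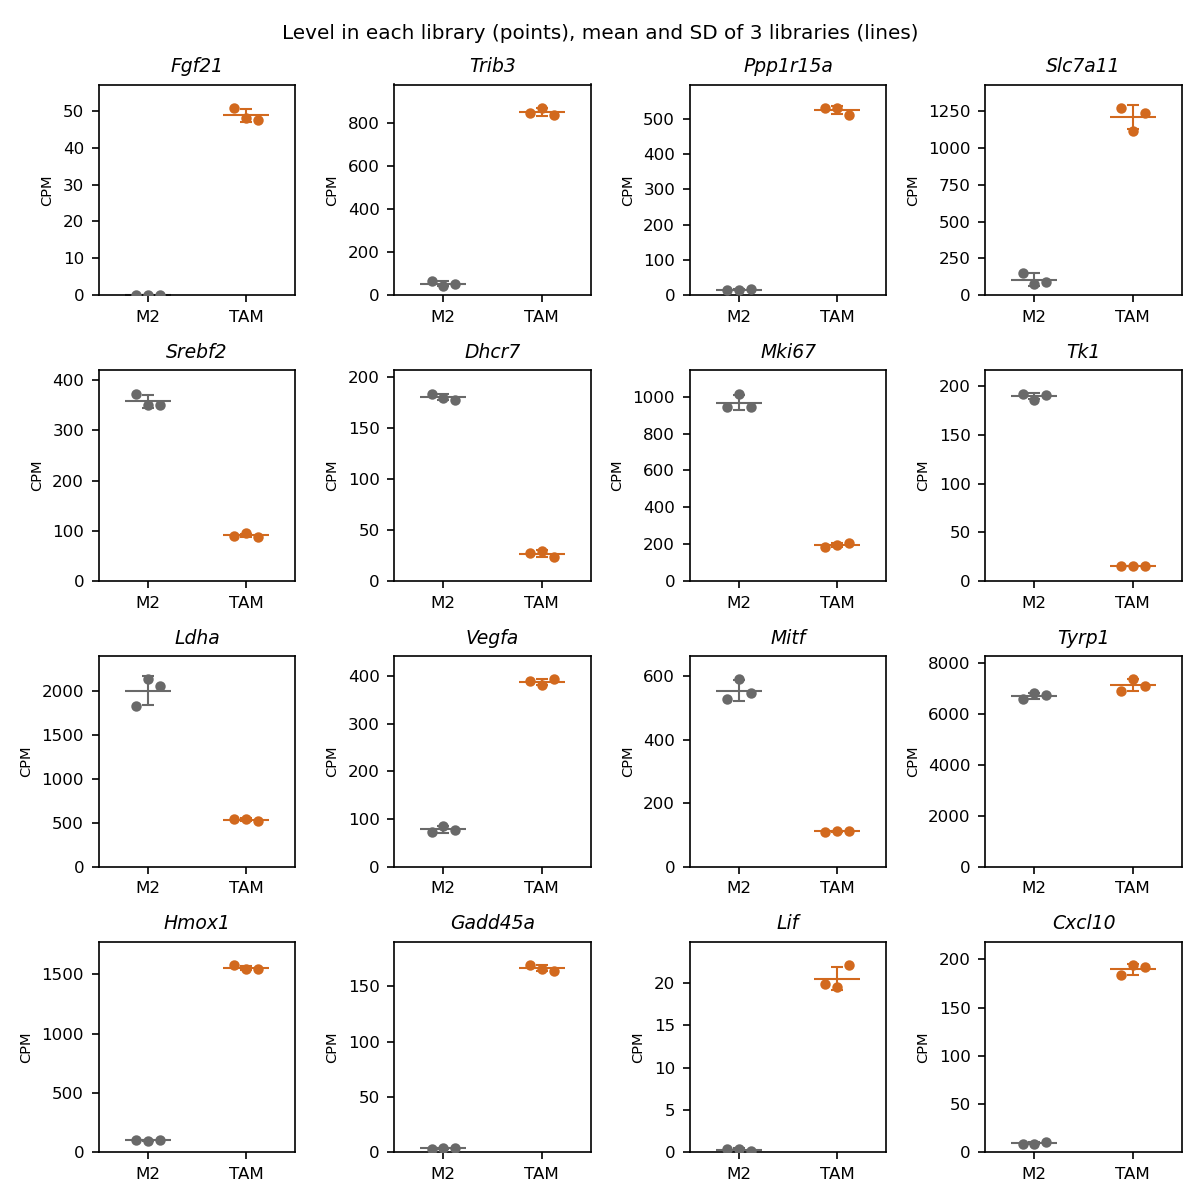
Levels of 16 genes in CPM (y axes, all starting at 0) in each of the 3 M2 libraries (grey points) and 3 TAM libraries (orange points), with the mean and SD as lines. The groups are separate in all 16 panels, as in 74.7% of all tested genes, with Tyrp1 the panel in which they lie closest.

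Amino acid supply genes rose with the regulators. Of 18 tested genes for serine, one-carbon and non-essential amino acid synthesis, 14 rose and 3 fell, with a median of 1.25. Cth, the enzyme that makes cysteine from cystathionine, stood at 13.8, 10.7 and 15.3 CPM in M2 and 195, 199.5 and 205 CPM in TAM, a log2 fold change of 3.92 ± 0.068 (adjusted p = 1.82e-26). Pycr1, which makes proline in mitochondria, stood at 6.38, 2.66 and 4.21 CPM in M2 and 71.7, 77.5 and 69.8 CPM in TAM, a log2 fold change of 4.05 ± 0.21 (adjusted p = 6.06e-06). Aldh1l2, the mitochondrial enzyme that oxidises formyl-tetrahydrofolate, stood at 170.3, 141 and 129.8 CPM in M2 and 1580.5, 1594 and 1586 CPM in TAM, a log2 fold change of 3.43 ± 0.11 (adjusted p = 1.51e-06). The mitochondrial folate enzymes Mthfd2 (1.39) and Shmt2 (0.55) rose, whereas their cytosolic counterparts Mthfd1 (-1.13) and Shmt1 (-0.63) fell. Asparagine synthetase (Asns) rose by 1.598 ± 0.12, and the serine enzymes Phgdh (0.76), Psat1 (0.19) and Psph (2.06) rose to different extents. Glul, which makes glutamine, fell by 1.33.

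Of 12 amino acid transporters, 11 rose, with a median of 1.56, and 1 fell. Slc7a11, the cystine importer known as xCT, stood at 154, 74.9 and 89.3 CPM in M2 and 1272, 1118 and 1241 CPM in TAM, a log2 fold change of 3.51 ± 0.31 (adjusted p = 0.00047). The M2 libraries were spread more widely for this gene than for most, and the groups did not overlap. Its partner chain Slc3a2 stood at 282, 236 and 257 CPM in M2 and 1418, 1420.3 and 1378 CPM in TAM, a log2 fold change of 2.44 ± 0.047 (adjusted p = 4.78e-24). The glycine transporter Slc6a9 (3.38), the neutral amino acid exchangers Slc1a4 (2.19) and Slc1a5 (1.70), the glutamine carrier Slc38a2 (1.61) and the arginine transporter Slc7a1 (1.51) rose too. The exception was Slc43a1 (-0.48), a low gene whose call was lost by DESeq2 and when M2 replicate 3 or TAM replicate 3 was left out.

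Cytosolic tRNA synthetases divided by enzyme. Of 20 genes, 14 rose and 5 fell (median 0.59). Wars (1.47), Lars (1.42), Rars (1.36), Eprs (1.36) and Nars (1.21) rose by more than 2-fold. Mars (-0.80), Qars (-0.79), Kars (-0.68), Hars (-0.36) and Farsa (-0.17) fell. The beta subunit of the phenylalanine enzyme, Farsb (0.93), rose while its alpha subunit Farsa fell.

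Sensors and chaperones of the endoplasmic reticulum were called in both directions equally often. Of 20 genes, 9 rose and 9 fell (45% each; median -0.059). The sensors Ern1 (IRE1, 1.88) and Atf6 (1.76), the transcription factor Xbp1 (1.25), the chaperone Hspa5 (BiP, 1.31), its co-chaperone Dnajb9 (1.90) and the degradation factor Herpud1 (1.64) rose. Hspa5 stood at 1303, 1369 and 1381 CPM in M2 and 3381, 3312 and 3374 CPM in TAM, with adjusted p = 3.08e-30. Sdf2l1 (-1.31) and the disulphide isomerases Pdia4 (-1.19), Pdia6 (-0.47) and Pdia3 (-0.45) fell, and Hsp90b1 was not called at -0.0091. Of 14 tested cytosolic and mitochondrial heat shock genes, 6 rose and 8 fell (median -0.25). The cytosolic chaperones Hsp90ab1 (-0.70), Hspa8 (-0.65) and Dnaja1 (-0.78) were among those that fell, and the mitochondrial chaperonins Hspe1 (1.00) and Hspd1 (0.25) rose. Hspb1 rose the most on this list (2.07 ± 0.21), at a low mean of 1.28 CPM in M2 and 5.38 CPM in TAM.

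The sterol pathway was lower in TAM from its first steps to its last. All 20 genes of mevalonate and sterol synthesis fell, 19 of them by at least 2-fold against 10.2% of all genes, and the median log2 fold change was -1.94. Dhcr7, which makes cholesterol from its immediate precursor, stood at 183, 179 and 177 CPM in M2 and 27.2, 29.5 and 23.2 CPM in TAM, a log2 fold change of -2.76 ± 0.055 (adjusted p = 2.97e-31). Idi1, the isomerase that makes the reactive isoprenoid unit, stood at 41.4, 42.4 and 40.4 CPM in M2 and 6.53, 6.68 and 5.41 CPM in TAM, a log2 fold change of -2.74 ± 0.087 (adjusted p = 3.89e-27). Acat2, the cytosolic thiolase at the head of the pathway, stood at 103, 96.7 and 102 CPM in M2 and 8.90, 12.9 and 12.5 CPM in TAM, a log2 fold change of -3.13 ± 0.079 (adjusted p = 4.74e-23). The groups did not overlap for any of the 3 genes, as for 74.7% of all tested genes. Sqle, squalene epoxidase, fell the least (-0.56).

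**Figure D4:**
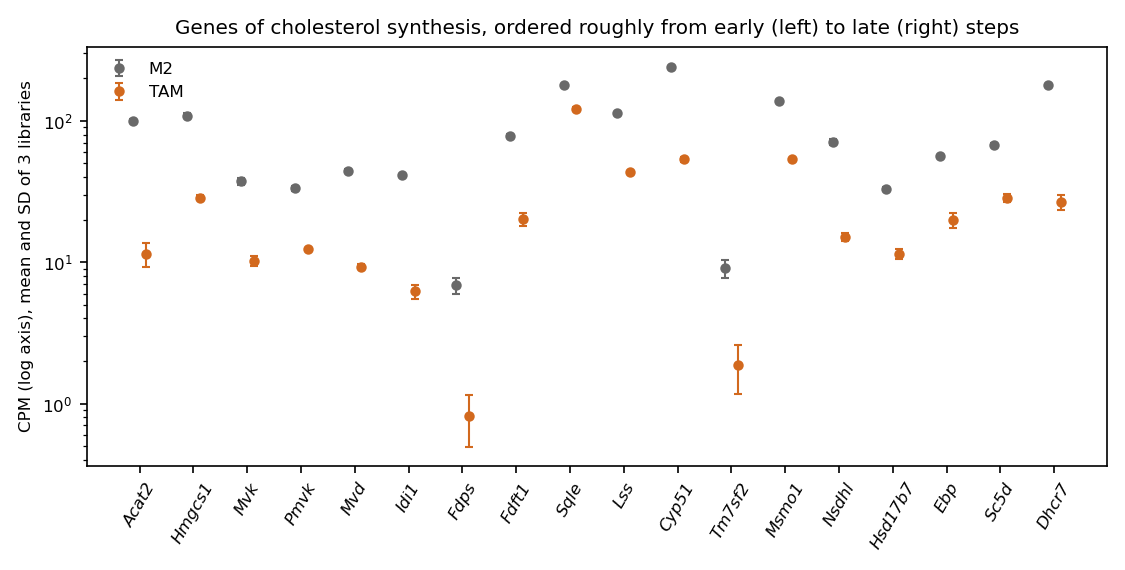
Mean CPM (log axis) with the SD of 3 libraries as bars for 18 of the 20 genes of mevalonate and sterol synthesis, ordered roughly from early to late steps. The M2 mean (grey) lay above the TAM mean (orange) for all 18 genes.

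Regulators of the pathway moved with its enzymes. Srebf2, which encodes the main transcription factor of sterol synthesis, stood at 373, 349.9 and 351 CPM in M2 and 89.3, 94.8 and 88.2 CPM in TAM, a log2 fold change of -1.98 ± 0.041 (adjusted p = 3.1e-33). Insig1, which holds SREBP in the endoplasmic reticulum and is itself a target of SREBP, stood at 193, 190.2 and 189 CPM in M2 and 23.8, 24.1 and 25.04 CPM in TAM, a log2 fold change of -2.97 ± 0.048 (adjusted p = 6.46e-37). Of 14 tested genes of SREBP control and sterol traffic, 11 fell and 2 rose (median -0.87). Those that fell also included the sterol carrier Stard4 (-3.12), Srebf1 (-1.76) and the escort Scap (-0.92). The genes that rose were the cholesterol exporter Abca1 (0.17), whose call was lost without TAM replicate 2, and Soat1, which esterifies cholesterol for storage (1.01). Insig2 was not called (-0.067), and Abcg1 and Nr1h3 had too few counts to be tested. Soat2, the related esterification enzyme, had 3 counts in M2 and 726 in TAM, a ratio of 233 (95% exact conditional interval 79.5 to 1130, counting error only).

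Fatty acid genes fell for the most part. Of 16 genes, 12 fell and 3 rose (median -1.12). Scd2, a desaturase that makes monounsaturated fatty acids, stood at 3384, 3423 and 3345 CPM in M2 and 739, 736 and 724 CPM in TAM, a log2 fold change of -2.21 ± 0.034 (adjusted p = 1.25e-37). Fatty acid synthase, Fasn, stood at 1392, 1349.6 and 1328 CPM in M2 and 475, 507 and 469 CPM in TAM, a log2 fold change of -1.49 ± 0.037 (adjusted p = 7.33e-31). Elovl6 (-1.95), Scd1 (-1.75), Acly (-1.12) and Acaca (-0.67) fell as well, and the malic enzyme Me1, a source of NADPH, rose (0.60). Among promoters of the sterol genes, 14 of 18 held a CCAAT box (CCAAT on either strand, 77.8%, against 37.4% of all promoters), and 1 of 18 held the sterol regulatory element as TCACNCCAC on either strand (5.56%, against 1.24%). Those promoters belong to 15 of the 20 genes. The window with the sterol element and 2 with the CCAAT box are printed, with the match in capitals.
Hmgcs1, chr13:119690189-119690248, plus strand: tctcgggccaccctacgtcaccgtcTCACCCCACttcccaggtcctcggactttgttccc
Idi1, chr13:8885534-8885593, plus strand: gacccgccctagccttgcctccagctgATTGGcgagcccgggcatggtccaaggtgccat
Dhcr7, chr7:143830102-143830161, plus strand: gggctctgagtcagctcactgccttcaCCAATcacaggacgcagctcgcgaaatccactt

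Glycolysis genes were lower in TAM. Of 22 genes, 19 fell and 2 rose (median -1.06), and Hk2 was not called (-0.24). Ldha, which makes lactate from pyruvate, stood at 1829, 2136 and 2064 CPM in M2 and 549, 543 and 521 CPM in TAM, a log2 fold change of -1.90 ± 0.045 (adjusted p = 3.47e-22). Pkm, the pyruvate kinase of proliferating cells, stood at 3265, 3531 and 3543 CPM in M2 and 1328, 1385 and 1299.7 CPM in TAM, a log2 fold change of -1.37 ± 0.036 (adjusted p = 7.12e-30). Aldoc (-3.08), the lactate exporter Slc16a3 (-1.98), the phosphofructokinases Pfkl (-1.88) and Pfkm (-1.83) and Pdk1, which blocks pyruvate entry to the citric acid cycle (-2.11), fell as well. The glucose transporter Slc2a3 (1.12) and the neuronal enolase Eno2 (2.38) rose.

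Targets of hypoxia-inducible factors were divided: of 16 genes, 9 fell and 5 rose (median -0.72). Vegfa, the main growth factor of blood vessels, stood at 72.1, 86.1 and 77.4 CPM in M2 and 389, 380.0 and 392 CPM in TAM, a log2 fold change of 2.30 ± 0.046 (adjusted p = 7.33e-31). The oxygen sensors Egln3 (-2.35) and Egln1 (-1.59), the peptide hormone Adm (-2.30), the mitophagy receptor Bnip3 (-1.69) and carbonic anhydrase Car9 (-1.44) fell, whereas Ndrg1 (1.31) rose. Hif1a, which encodes such a factor itself, rose by 0.39. The Hif1a call was lost in the fit of 12 libraries and in the test against a 1.5-fold change. Vegfa thus moved against Egln3, Adm and Bnip3 in the same libraries.

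Nuclear genes of the respiratory chain changed by less: of 30, 16 fell and 9 rose, 1 of them (Uqcrq, 1.17) by at least 2-fold, with a median of -0.16. Of 12 tested genes of the mitochondrial genome, 4 rose and 4 fell (33.3% each; median 0.033), from mt-Nd1 (-0.71) to mt-Nd4l (0.84). Reads of the mitochondrial genome made up 2.21% to 2.46% of counts per library over both groups.

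Genes of DNA replication were lower in TAM in every case tested. All 32 fell, 21 of them by at least 2-fold, with a median of -1.18. Lig1, the ligase of the lagging strand, stood at 253, 257 and 252 CPM in M2 and 46.9, 49.0 and 48.5 CPM in TAM, a log2 fold change of -2.40 ± 0.043 (adjusted p = 1.32e-35). Mcm6, a subunit of the replicative helicase, stood at 468, 482 and 476 CPM in M2 and 113, 116 and 114 CPM in TAM, a log2 fold change of -2.05 ± 0.038 (adjusted p = 6.43e-35). All subunits of that helicase fell, from Mcm7 (-1.05) to Mcm6 (-2.05). The polymerase subunit Pold1 (-2.27), the sliding clamp Pcna (-1.12) and the origin factors Orc1 (-1.63) and Cdc6 (-1.61) fell as well.

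Of 21 genes for nucleotide synthesis, 17 fell and 3 rose (median -0.53). Thymidine kinase, Tk1, which salvages thymidine in S phase, stood at 193, 186 and 191 CPM in M2 and 15.2, 15.2 and 14.98 CPM in TAM, a log2 fold change of -3.65 ± 0.052 (adjusted p = 1.02e-38). Both large and small subunits of ribonucleotide reductase, Rrm1 (-1.45) and Rrm2 (-1.25), and thymidylate synthase, Tyms (-1.42), fell. Rrm2b, the small subunit that p53 induces, is not among these 21 genes and rose (2.11).

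Mitosis genes were lower too: of 32, 31 fell, 21 by at least 2-fold, with a median of -1.27. Mki67, which encodes the proliferation marker Ki-67, stood at 943, 1016 and 945 CPM in M2 and 183, 195 and 208 CPM in TAM, a log2 fold change of -2.31 ± 0.042 (adjusted p = 1.2e-32). Aurkb, a kinase of the chromosomal passenger complex, stood at 154, 155 and 157 CPM in M2 and 25.3, 25.8 and 25.3 CPM in TAM, a log2 fold change of -2.61 ± 0.049 (adjusted p = 8.47e-35). Plk1 (-2.14), cyclin B2 (Ccnb2, -1.95), Top2a (-1.40) and Cdk1 (-0.96) fell, and the kinetochore gene Ndc80 was the member that rose (0.19).

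Genes that control entry into S phase were mixed. Of 24 tested, 14 fell and 8 rose (median -0.40). The kinase Cdk2 (-2.10), cyclin E1 (Ccne1, -1.13) and the factors E2f1 (-1.601), E2f2 (-1.35), E2f7 (-1.51) and E2f8 (-2.48) fell. The D cyclins Ccnd1 (0.52) and Ccnd2 (1.08) rose and Ccnd3 fell (-1.07). The inhibitor Cdkn1a (p21) stood at 120.0, 131 and 131 CPM in M2 and 479, 513 and 472 CPM in TAM, a log2 fold change of 1.94 ± 0.042 (adjusted p = 1.6e-32), and Cdkn1b (p27) rose by 0.57. The inhibitors Cdkn2c (-1.88) and Cdkn2d (-0.96) fell, and Cdkn2a and Cdkn2b had too few counts to be tested.

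In promoters of the mitosis genes, 18 of 27 held the cell cycle homology region as TTTGAA on either strand (66.7%, against 17.9% of all promoters) and 20 of 27 held a CCAAT box (74.1%, against 37.4%). In promoters of the replication genes, 5 of 30 held an E2F site as TTTGGCGC on either strand (16.7%, against 0.514%). These promoters belong to 26 of the 32 genes on each list. The windows show these letters in genes that fell, with 1 match in capitals.
Mki67, chr7:135716463-135716522, minus strand: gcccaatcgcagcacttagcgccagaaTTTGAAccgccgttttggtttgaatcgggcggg
Ccnb2, chr9:70421689-70421748, minus strand: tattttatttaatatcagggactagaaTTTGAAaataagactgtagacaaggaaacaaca
Cdk1, chr10:69352951-69353010, minus strand: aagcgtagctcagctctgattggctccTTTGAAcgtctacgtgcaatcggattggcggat
Mcm6, chr1:128359782-128359841, minus strand: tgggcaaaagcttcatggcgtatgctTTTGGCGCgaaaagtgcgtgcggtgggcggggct
Mcm5, chr8:75109334-75109393, plus strand: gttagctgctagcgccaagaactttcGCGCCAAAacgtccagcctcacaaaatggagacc

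Targets of the tumour suppressor p53 were mostly higher in TAM. Of 23 tested genes (Trp53 itself included), 20 rose and 2 fell, with a median of 1.30. Gadd45a, a growth arrest gene that ATF4 also induces, stood at 3.32, 3.61 and 4.32 CPM in M2 and 169, 166 and 164 CPM in TAM, a log2 fold change of 5.47 ± 0.071 (adjusted p = 5.77e-40). Mdm2, the ligase that degrades p53, stood at 112, 115 and 111 CPM in M2 and 384, 389 and 405 CPM in TAM, a log2 fold change of 1.80 ± 0.039 (adjusted p = 1.03e-32). Plk2 (3.31), Btg2 (2.62), Trp53inp1 (2.10), Ccng1 (1.08), Bbc3 (PUMA, 1.68) and Bax (0.75) rose, and Trp53 rose by 0.44. Sesn1 (-1.29) and Ei24 (-0.30) fell and Ddb2 was not called (0.027). Pmaip1, Fas, Eda2r and Perp had too few counts to be tested, and Cdkn1a and Sesn2 stand on other lists too.

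Cell death genes moved both ways: of 23 tested, 13 rose and 7 fell (median 0.37). Tnfrsf12a, the receptor of the cytokine TWEAK, stood at 49.2, 38.6 and 42.7 CPM in M2 and 389, 396 and 362 CPM in TAM, a log2 fold change of 3.14 ± 0.065 (adjusted p = 7.25e-17). The death receptor Tnfrsf10b (1.31), the inflammatory caspase Casp4 (2.67) and the pore protein Gsdmd (1.62) rose. The executioner caspase Casp6 (-1.92) and the initiators Casp8 (-0.52) and Casp9 (-0.76) fell. The protective Bcl2 (1.46) and Bcl2l1 (0.43) rose and Mcl1 fell (-0.33).

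Antioxidant genes under NRF2 were divided: of 24 genes, 14 rose, 8 of them by at least 2-fold, and 9 fell, 1 of them by at least 2-fold (median 0.25). Hmox1, the enzyme that degrades haem, stood at 108, 96.2 and 100.5 CPM in M2 and 1577, 1543 and 1541 CPM in TAM, a log2 fold change of 3.94 ± 0.042 (adjusted p = 1.73e-42). The glutathione genes Gclc (1.504) and Gclm (1.73), the reductases Txnrd1 (1.64) and Srxn1 (1.91), and Nqo1 (1.39) rose. Glutathione reductase (Gsr, -0.33), thioredoxin (Txn1, -0.43), catalase (Cat, -0.41), both superoxide dismutases Sod1 (-0.46) and Sod2 (-0.17), and, by more than 2-fold, the transferase Mgst1 (-1.91) fell. Nfe2l2, which encodes NRF2, rose by 0.48, and its inhibitor Keap1 fell by 0.51. An antioxidant response element, as TGACNNNGC on either strand, was present in 11 of 25 promoters of 20 of these genes (44%), against 12.4% of all promoters, among them those of Gclm and Mgst1, which moved in opposite directions.

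Of 12 genes of iron handling and ferroptosis, 7 rose and 3 fell (median 0.31), and apart from Hmox1 the changes stayed under 2-fold. Ferritin heavy chain (Fth1, 0.29) and the peroxidase Gpx4 (0.33) rose and the transferrin receptor (Tfrc, -0.29) fell. Among the 4 genes of zinc and metallothioneins, Mt1 fell (-1.49), Mt2 was not called (0.068), and the zinc exporter Slc30a1 (1.36) and the zinc-sensing factor Mtf1 (0.55) rose (median 0.31).

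Sqstm1, the autophagy receptor p62, stood at 1363, 1228 and 1271 CPM in M2 and 8605, 8356 and 8387 CPM in TAM, a log2 fold change of 2.71 ± 0.037 (adjusted p = 2.38e-39). Of 26 autophagy genes, 17 rose and 7 fell (median 0.27), and Gabarapl1, a ubiquitin-like protein of the autophagosome, rose by 1.91. Map1lc3b was not called (-0.039). Tfeb, a transcription factor of lysosome genes, fell by 1.73, whereas its relative Tfe3 rose by 0.60. Of 22 lysosome genes, 8 rose and 10 fell with a median of -0.025, and the protease Ctsl rose the most (2.07).

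Of 38 interferon response genes 28 were tested, 11 rose (39.3%, against 36.3% of all genes) and 9 fell (32.1%, against 36.8%), with a median of 0.18. These shares lie near the background and are no result about the list. Cxcl10, a chemokine that attracts T cells, stood at 9.07, 8.43 and 10.5 CPM in M2 and 183, 194 and 192 CPM in TAM, a log2 fold change of 4.35 ± 0.061 (adjusted p = 6.14e-39). Isg15 (2.13) and Ifit1 (1.95) rose, and the transcription factors Stat2 (-0.30) and Irf1 (-0.34), which carry the interferon signal, fell. The Irf1 call was lost in the fit of 12 libraries and in the test against a 1.5-fold change. Bst2 (-0.78) and Trim21 (-1.03) fell too. Members of the Ifit, Gbp and H2 families share sequence, and how the authors' counting treated shared reads is not given in the sources used here, so their values are uncertain. An interferon-stimulated response element, taken as GAAA and GAAA with 2 bases of any kind between them on either strand, was present in 18 of 28 promoters of 24 tested interferon genes (64.3%), against 3.44% of all promoters. Promoters of Cxcl10 and Isg15, the members with the largest rises, are shown with 1 match in capitals.
Cxcl10, chr5:92349068-92349127, minus strand: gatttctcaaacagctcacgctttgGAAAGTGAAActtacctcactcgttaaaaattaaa
Isg15, chr4:156200862-156200921, minus strand: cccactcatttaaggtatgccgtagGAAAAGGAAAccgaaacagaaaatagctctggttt

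Of 14 tested genes for presentation on MHC class I, 8 rose and 2 fell (median 0.37). H2-K1, a classical class I gene, stood at 22.7, 22.1 and 23.04 CPM in M2 and 53.2, 48.2 and 48.3 CPM in TAM, a log2 fold change of 1.14 ± 0.066 (adjusted p = 1.08e-18). H2-D1 (0.62), B2m (0.25) and Tapbpl (1.51) rose, and the non-classical H2-T22 (-1.61) and the immunoproteasome subunit Psmb10 (-1.05) fell. Of 7 class II genes 3 were tested, 1 rose, 1 fell and 1 was not called (median -0.15). Cd74, the invariant chain, stood at 0.259, 0 and 0 CPM in M2 and 11.8, 12.8 and 12.2 CPM in TAM, a log2 fold change of 7.03 ± 0.31 (adjusted p = 1.09e-20). Its 5 counts in M2 all lay in M2 replicate 1, and the log2 fold change was 10.89 without that library and 6.447 without M2 replicate 2, so its size is uncertain. H2-DMb1, a chain of the chaperone that loads peptide, fell by 0.95, a call lost in the fit of 12 libraries and in the test against a 1.5-fold change, and H2-DMa was not called (-0.16). The class II chains H2-Aa, H2-Ab1 and H2-Eb1 and their regulator Ciita had too few counts to be tested. Macrophages express class II genes too; the sums of their markers are given above, and their part in the Cd74 value was not tested.

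Of 18 genes of immune checkpoints and suppression 9 were tested, 5 rose and 2 fell (median 0.48). Pvr, the ligand of the inhibitory receptor TIGIT, rose by 1.84 ± 0.045, galectin-3 (Lgals3) by 2.35 ± 0.041 and Tgfb1 by 1.46 ± 0.083. Galectin-9 (Lgals9) fell by 1.69. Cd274, which encodes PD-L1, stood at 4.82, 4.77 and 4.49 CPM in M2 and 7.79, 5.78 and 6.17 CPM in TAM, a log2 fold change of 0.48 ± 0.15 (adjusted p = 0.00473). The Cd274 call was lost without TAM replicate 1 (adjusted p = 0.0654), in the fit of 12 libraries and in the test against a 1.5-fold change. Ido1, Nt5e and Pdcd1lg2 were among the 9 members with too few counts to be tested.

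Of 15 tested genes of NF-kB, cytokines and chemokines, 10 rose and 1 fell (2 without M2 replicate 1; median 0.57), and 14 had too few counts, among them Il6, Il1b, Tnf and Ccl2. Relb, a non-canonical subunit of NF-kB, stood at 8.09, 9.23 and 11.5 CPM in M2 and 43.1, 46.4 and 42.6 CPM in TAM, a log2 fold change of 2.20 ± 0.087 (adjusted p = 2.61e-23), and its partner Nfkb2 rose by 1.22. Nfkb1 was not called (0.058) and the feedback inhibitor Tnfaip3 was not called (-0.32). The chemokine Ccl5, which draws T cells and monocytes, stood at 1.14, 1.10 and 1.66 CPM in M2 and 15.8, 14.5 and 16.7 CPM in TAM, a log2 fold change of 3.59 ± 0.16 (adjusted p = 2.73e-22).

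Cytokines of the interleukin-6 family rose while several of their signalling genes did not. Lif, leukaemia inhibitory factor, stood at 0.415, 0.402 and 0.166 CPM in M2 and 19.8, 19.6 and 22.1 CPM in TAM, a log2 fold change of 5.92 ± 0.19 (adjusted p = 1.06e-26). Il11 (5.04) and Clcf1 (4.68) were also near absent in M2 and rose. The shared receptor Il6st (0.72) and the receptors Osmr (1.10) and Il6ra (3.15) rose. The receptor gene Cntfr (-1.16) and Gfap (-1.015) fell by more than 2-fold. The transcription factor Stat3 (-0.25) and its feedback target Socs3 (-0.34) fell, and over the list of 18 genes 12 rose and 4 fell (median 0.91). The Stat3 call was lost in the fit of 12 libraries and in the test against a 1.5-fold change.

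Of 13 genes of the IL-4 and STAT6 response (Stat6 itself and receptor genes included), 8 were tested. Among these, 5 were higher in TAM and 0 were lower (median 0.55). Il4ra, a chain of the IL-4 receptor, stood at 1.92, 2.26 and 1.94 CPM in M2 and 4.84, 5.22 and 5.16 CPM in TAM, a log2 fold change of 1.31 ± 0.19 (adjusted p = 5.4e-08). Socs1 (-0.16), Cish (0.44) and Stat6 (-0.00018) were not called. Nfil3, which rose by 3.06, also responds to other signals.

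Immediate early and AP-1 genes were higher in TAM in most cases. Of 22 tested, 17 rose and 3 fell (median 1.55). Jun stood at 41.1, 37.5 and 39.9 CPM in M2 and 156, 148 and 152 CPM in TAM, a log2 fold change of 1.94 ± 0.048 (adjusted p = 5.47e-31). Junb (2.38), Fosl2 (1.80), Klf4 (2.83) and Myc (1.52) rose, as did Egr1 (4.22), whose mean lay under 2 CPM. Fos itself was not called (-0.064), and the orphan receptors Nr4a1 (-0.26) and Nr4a3 (-1.29) fell. The AP-1 site as TGANTCA on either strand was found in 0 of 20 promoters of these genes and in 7.81% of all promoters. Of 16 tested genes of the EGF family and of feedback on ERK, 9 rose, among them Dusp6 (1.53), Spry4 (1.98) and Etv5 (1.65), and 2 fell (median 0.30), or 1 by DESeq2 and when M2 replicate 1, TAM replicate 2 or TAM replicate 3 was left out.

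Targets of TGF-beta, BMP and the YAP and TAZ coactivators rose: 14 of 19 tested were higher and 2 lower (median 1.46). Ccn1, a secreted matrix protein, stood at 18.2, 15.3 and 16.9 CPM in M2 and 411, 371 and 375 CPM in TAM, a log2 fold change of 4.52 ± 0.056 (adjusted p = 3.15e-38). Id1, a BMP target that blocks differentiation factors, stood at 1.92, 2.71 and 2.55 CPM in M2 and 20.4, 19.7 and 23.02 CPM in TAM, a log2 fold change of 3.13 ± 0.13 (adjusted p = 5.27e-23). The BMP target Id3 (2.78) and the inhibitor Smad7 (2.01) rose, and the receptor Tgfbr2 fell (-0.82).

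Melanocyte regulators and pigment genes were lower in TAM for the most part. Mitf stood at 527, 589 and 546 CPM in M2 and 109, 114 and 111 CPM in TAM, a log2 fold change of -2.32 ± 0.042 (adjusted p = 2.64e-35). Mc1r, the melanocortin receptor upstream of Mitf, stood at 162, 156 and 164 CPM in M2 and 31.7, 38.2 and 37.1 CPM in TAM, a log2 fold change of -2.17 ± 0.052 (adjusted p = 3.16e-30). The TAM libraries were close to each other and far below the M2 libraries for both genes. Of 8 tested regulators 5 fell and 2 rose (median -0.60). The receptor Kit fell the furthest, by 2.85, from 101 counts over the M2 libraries to 14 over the TAM libraries. Kit passed the filter on counts through M2 alone, so the size of its fall follows in part from the selection. Sox10, which sustains the lineage, fell by 0.70, whereas the earlier lineage factors Pax3 (0.94) and Sox6 (0.77) rose.

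Of 19 pigment and melanosome genes, 14 fell and 3 rose (median -0.73). Pmel, which forms the fibrils of the melanosome, stood at 4079.7, 4199 and 4282 CPM in M2 and 1519.6, 1672 and 1595 CPM in TAM, a log2 fold change of -1.39 ± 0.036 (adjusted p = 2.28e-30). Tyr, tyrosinase, which catalyses the first steps of melanin synthesis, stood at 622, 638 and 628 CPM in M2 and 286, 289 and 286 CPM in TAM, a log2 fold change of -1.13 ± 0.036 (adjusted p = 2.42e-27). Its relatives Tyrp1 and Dct changed little, with Tyrp1 at 6579, 6818 and 6735 CPM in M2 and 6887, 7352 and 7111 CPM in TAM and a log2 fold change of 0.085 ± 0.032 (adjusted p = 0.018). Dct fell by 0.080. Oca2 (-2.20), Slc45a2 (-1.45), Slc24a5 (-1.16) and Mlana (-1.11) fell, and Rab38 (0.34) and Gpnmb (0.19) rose.

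**Figure D5:**
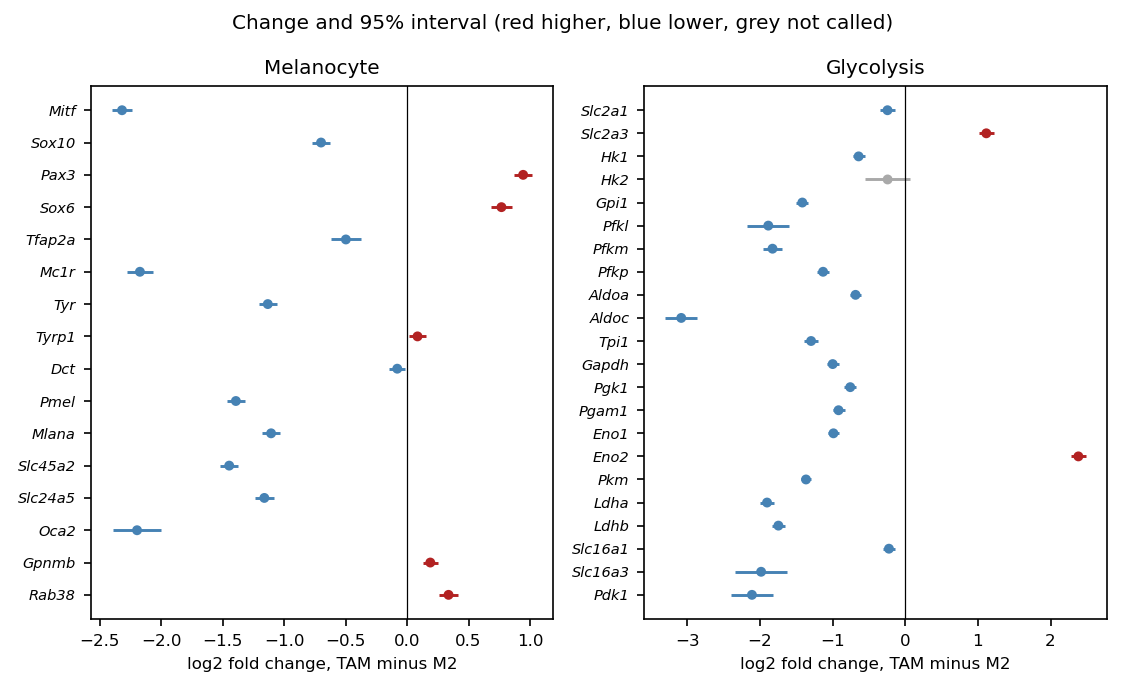
Log2 fold change of TAM over M2 (x axis) with its 95% interval for melanocyte genes (left) and glycolysis genes (right), red where higher, blue where lower and grey where not called. Mitf, Mc1r and Oca2 lie furthest to the left among the melanocyte genes plotted, which leave out Kit, and Tyrp1 and Dct lie next to 0, as Hk2 does among the glycolysis genes with the interval that crosses 0.

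Genes linked to the undifferentiated state of melanoma were mixed, with 6 of 12 tested higher and 4 lower (median 0.10). Ngfr, the neural crest receptor CD271, stood at 2.75, 2.61 and 1.77 CPM in M2 and 32.0, 33.7 and 35.3 CPM in TAM, a log2 fold change of 3.81 ± 0.12 (adjusted p = 7.33e-28). The receptor kinase Axl rose by 2.06 ± 0.057 and nestin (Nes) by 1.16 ± 0.042. Vimentin (Vim) fell by 1.38, Cdh2 by 0.61 and Sox9 by 0.32, and Cdh1, already low in M2, fell by 2.83 (-3.74 without TAM replicate 2). Wnt5a, Twist1, Snai1, Sox2, Aqp1, Gfra2 and Tnc had too few counts to be tested.

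Of 24 tested genes of matrix, proteases and integrins, 8 rose and 12 fell (median -0.22; 0.02 when genes of low counts were kept). Fibronectin, Fn1, stood at 122, 106 and 105 CPM in M2 and 557, 602 and 572 CPM in TAM, a log2 fold change of 2.38 ± 0.048 (adjusted p = 5.96e-26). Its receptor chain Itga5 (1.04), the inhibitor Timp3 (2.46) and the laminin receptor chain Itga3 (2.72) rose. The basement membrane collagens Col4a1 (-1.37) and Col4a2 (-0.84), the integrin chain Itgb3 (-1.49) and the activator Plat (-1.76) fell. Col1a1 rose (1.75) and is also among the fibroblast markers given above, whose sum was higher in TAM; their part in the matrix values was not tested.

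Host genes of small nucleolar RNAs rose in 9 of 10 tested cases (median 1.44). The spliced RNAs of several of them are degraded through nonsense-mediated decay, which needs translation. Snhg1 stood at 21.2, 20.4 and 24.1 CPM in M2 and 133, 139 and 132 CPM in TAM, a log2 fold change of 2.62 ± 0.056 (adjusted p = 5.45e-33). Zfas1 (2.64), Snhg12 (2.66), Snhg15 (1.89) and Gas5 (1.503) rose, and Snhg20 fell (-0.60). Of 23 tested genes of ribosome production and the Myc network, 14 rose and 4 fell (median 0.18). Nop58 rose by 1.30 and Bop1 fell by 0.94. Mxd3, a Myc antagonist of cycling cells, stood at 33.5, 37.3 and 35.5 CPM in M2 and 1.47, 1.61 and 1.26 CPM in TAM, a log2 fold change of -4.61 ± 0.12 (adjusted p = 4.71e-30).

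Beyond the lists, the largest rises were in genes nearly absent from M2. These genes passed the filter on counts through their TAM libraries alone and were then ranked by fold change. Their near absence from M2 and their large ratios therefore follow in part from the selection. Among the genes described above, Fgf21, Gdf15, Soat2, Cd74, Lif, Il11, Il6ra and Egr1 also passed the filter through TAM alone, and others may have. Cox6a2, a respiratory chain subunit of heart and skeletal muscle, had no count in the 3 M2 libraries and 904 counts in TAM, at least 290-fold higher when M2 is set to a floor of 3 counts for the whole group. Fibcd1 had 1 count in M2 and 241 in TAM (ratio 232, 95% interval 41.3 to 9210), Trim66 3 and 437 (140, 47.7 to 684), Mmp28 3 and 417 (134, 45.5 to 652), Elfn2 3 and 386 (124, 42.1 to 604) and Hrk 2 and 246 (119, 32.5 to 985), all with exact conditional intervals. Hrk encodes a protein of the BH3-only class that promotes apoptosis. Akr1b7, an aldo-keto reductase, stood at 0.156, 0.1 and 0 CPM in M2 and 21.2, 20.9 and 21.2 CPM in TAM, a log2 fold change of 7.81 ± 0.24 (adjusted p = 1.6e-27; 8.47 without M2 replicate 1). The calcium pump Atp2a3 rose by 6.87 ± 0.29, with 6 counts in M2 that lay mostly in M2 replicate 3; the value was 8.665 without that library and 6.275 without M2 replicate 2.

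The largest falls included Map2k6, a kinase that activates p38, which stood at 14.2, 16.5 and 13.9 CPM in M2 and 0.421, 0.553 and 0.253 CPM in TAM, a log2 fold change of -5.16 ± 0.20 (adjusted p = 4.79e-24). Gamt, which makes creatine, stood at 21.8, 21.5 and 23.9 CPM in M2 and 0.737, 0.954 and 0.455 CPM in TAM, a log2 fold change of -4.95 ± 0.17 (adjusted p = 1.89e-26). Selenbp1, a selenium-binding protein, stood at 38.9, 49.99 and 42.8 CPM in M2 and 2.95, 2.91 and 3.04 CPM in TAM, a log2 fold change of -3.89 ± 0.11 (adjusted p = 4.74e-28). Every TAM library lay below every M2 library for each of the 3 genes, which the rule for naming the largest falls required. Map2k6 and Gamt passed the filter on counts through M2, and their TAM libraries alone would not have passed it. Their near absence from TAM and their large falls therefore follow in part from the selection. This may hold for other low genes among the falls too. Kbtbd11 (-4.76), the sodium channel Scn1a (-4.60), Ip6k3 (-3.88), the pseudokinase Trib2 (-3.87), the small GTPase Rab17 (-3.73), the lysophosphatidic acid receptor Lpar5 (-3.71) and the glutathione transferase Gsta2 (-3.68) were also among them, as was Mxd3. Trib2 and Trib3, pseudokinases of 1 family, moved in opposite directions.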

How the data were processed

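The authors deposited 1 table of read counts per gene for all libraries. The values were whole numbers with unequal column totals and were used as raw counts. The submitters' processing notes name HISAT2 2.0 and build mm10, and which counter, annotation and strand setting were used is not given in the sources used here. Without a stated strand, reads of overlapping antisense genes cannot be told apart. Total RNA was extracted with Trizol and Illumina mRNA libraries were made, per the labels' protocols. Groups came from the sample labels, and TAM replicate 2, with a misspelt title, was placed by its treatment.

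The 6 libraries were fitted alone in R 4.3.3 with edgeR 4.0.16: filterByExpr by group, TMM scaling, a robust quasi-likelihood fit and Benjamini-Hochberg adjustment over 13931 genes, with calls at an adjusted p under 0.05. The script was tested on simulated counts. SE is the change divided by the square root of its F statistic. Named genes are the 12 largest rises and falls among called genes with a mean of at least 2 CPM, no overlap between groups and a proper symbol, up to 4 members per list with the largest changes, members called against their list by at least 2-fold, and checks such as Mitf, Trp53 and Cd274. Some genes that this rule names are left out of the text. Other list members named beside them were picked with their values in view. The members and lists were chosen with earlier results of these data known. Alternatives covered scaling (RLE, upper quartile), filters, DESeq2 1.42.0, voom in limma 3.58.1, a replicate block, fits with the other libraries of the series, a test against a 1.5-fold change and each library left out. Replicate numbers did not pair the samples. Ratios against groups of 1 to 3 counts carry exact conditional binomial intervals at 95% confidence, and a group without counts was set to a floor of 3. Without molecular identifiers, reads are not independent molecules, and these intervals cover counting error only.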

Additional observations from a re-analysis of the deposited data

How the results depend on the processing

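No named gene turned its sign under any alternative (the median of the matrix genes moved from -0.22 to 0.02 without a filter), and no gene called in the fit of 6 libraries was called in the opposite direction elsewhere. With all 12 libraries sharing 1 estimate of the spread, 3016 genes were higher and 3293 lower, and with M0 replicate 1 left out of that fit 5121 and 5286. A test against a 1.5-fold change called 1951 higher and 2058 lower. DESeq2 called 4828 and 4834, voom 5063 and 5135, upper-quartile scaling 5153 and 5051, and no filter 5242 and 5235 of 25549 genes, with 1792 and 1605 changed at least 2-fold. Leaving out each library in turn gave 4894 to 4968 higher and 4960 to 5073 lower, and 1467 to 1548 and 1442 to 1505 by at least 2-fold. Among repeats of named genes, 3246 kept their call and direction and 33 lost the call: 11 in the fit of 12 libraries, 18 in the test against 1.5-fold and 4 when a library was left out (Eif2ak3 and Cd274). Of repeated list counts, 1226 stayed within 1.5-fold of the main fit and 86 moved further. Of those 86, 49 moved in the test against a 1.5-fold change and 25 in the fit of 12 libraries. Of repeated list medians, 595 moved by less than the spread between replicates and 61 by as much or more. Replicate numbers did not pair samples: same-numbered deviations correlated at -0.0768, -0.128 and -0.0849 and others at -0.0227 to 0.1. With a replicate block 4968 genes were higher and 5054 lower (1435 and 1420 by at least 2-fold). At 18012924 to 20075551 counts a library, genes under 1 CPM rest on few counts per library.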

Other observations

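Gene families and classes, some of whose members are also on the lists above, were counted as well; they were chosen after their values were seen. Of 13 tested tubulin genes, 12 fell and 0 rose (median log2 fold change -1.28, against 36.8% of all genes called lower). Tubb5, a beta-tubulin, stood at 2012, 1999 and 2073 CPM in M2 and 473, 507 and 452 CPM in TAM, a log2 fold change of -2.09 ± 0.038 (adjusted p = 8.29e-35). Tubb3, the beta-tubulin of neurons, fell by 2.74, and Tubb4a was not called (-0.19). Of 36 tested proteasome subunit genes (a group picked by symbol, which also takes in Psmc3ip, a recombination gene), 24 fell (66.7%, against 36.8% of all genes) and 8 rose with a median of -0.28, and Psmd8 rose the most (1.08). Of 14 Kruppel-like factors, 13 rose (92.9%, against 36.3% of all genes) and 1 fell, with a median of 0.69, from Klf12 (-0.90) to Klf4 (2.83). Of 76 ribosomal protein genes, 37 rose (48.7%) and 18 fell (23.7%) with a median of 0.10. Long non-coding RNAs of bidirectional promoters rose in 28 (50.9%) and fell in 10 (18.2%) of 55 tested cases (median 0.56).

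Single genes outside the lists and the rule for naming included Txnip, an inhibitor of thioredoxin and glucose uptake, at 18.1, 23.9 and 20.6 CPM in M2 and 162, 208 and 182 CPM in TAM, a log2 fold change of 3.14 ± 0.15 (adjusted p = 2.35e-05). Mcam, the melanoma adhesion molecule CD146, stood at 113, 108 and 103 CPM in M2 and 719.9, 736 and 698 CPM in TAM, a log2 fold change of 2.73 ± 0.041 (adjusted p = 4.37e-38). Ero1l, an oxidase of the endoplasmic reticulum, rose by 2.63 ± 0.084. Tet1, which oxidises methylated cytosine, stood at 19.8, 24.9 and 20.1 CPM in M2 and 2.05, 1.51 and 1.87 CPM in TAM, a log2 fold change of -3.58 ± 0.14 (adjusted p = 7.39e-24). The receptor kinase Met stood at 1664, 1768 and 1679 CPM in M2 and 458, 462 and 463 CPM in TAM, a log2 fold change of -1.89 ± 0.036 (adjusted p = 1.08e-34). The groups did not overlap for these genes, as for 74.7% of all tested genes.

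In the other 2 groups of the series, B16F10 cells received medium of untreated macrophages (M0) or of macrophages given interferon gamma, which the labels spell INF-γ (M1). Levels there are given on a scale fitted over all 12 libraries, without a test, and M0 replicate 1 stood apart from the other 2 M0 libraries. Trib3 stood at 116, 36.0 and 43.4 CPM in M0 and 117, 73.5 and 106 CPM in M1. Mitf stood at 223, 580.4 and 568 CPM in M0 and 308, 415 and 332 CPM in M1. On this scale the TAM libraries held 108 to 113 CPM of Mitf, below every other library, and 831.0 to 862 CPM of Trib3, above every other library. Cxcl10 stood at 2007, 2074 and 2041 CPM in M1 and Cd74 at 70.1, 74.9 and 73.5 CPM, both above all TAM libraries.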
